A study of Homo sapiens with 24 samples.

Results

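The chemokine ligands and receptors named on the array were examined in 4 diffuse large B-cell lymphoma (DLBCL) lines after silencing of FOXP1, a forkhead transcription factor of B cells. Members were all genes whose array symbol begins with CCL, CXCL, CCR or CXCR and a number, with XCL1, XCL2, CX3CL1, CX3CR1 and XCR1, which gave 57 of the 30142 named genes, 40 ligands and 17 receptors, read by 78 probes. The rule used symbols and no measured value, but it was set with earlier results of these data known. DB and K422 are lines of the germinal center B-cell-like subtype (GCB-DLBCL), and HBL-1 and OCI-Ly3 are of the activated B-cell-like subtype (ABC-DLBCL). In each line FOXP1 was silenced by nucleofection of 1 µM siFOXP1_308 or siFOXP1_309, both Stealth siRNAs, and the control cells of the same line received a Stealth Low GC negative control duplex (siCtrl). RNA was taken after 48 h from 3 biological replicates, and each siFOXP1 RNA was hybridized with a siCtrl RNA on a 2-color array, which gave 6 arrays per line and 24 in all. siFOXP1 RNA carried Cy3 and siCtrl RNA carried Cy5 on all 24 arrays, so a dye bias of a probe and an effect of silencing within a line cannot be told apart. A subtype is represented by 2 lines, and each line is a cultured tumor line, grown apart from the tissue of a tumor.

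Chemokines are small secreted proteins that steer leukocytes along concentration gradients, and their receptors are G protein-coupled receptors of the cell surface. In secondary lymphoid tissue CXCR5 draws B cells to follicles, where stromal cells make CXCL13, while CCR7 draws cells to the T-cell zone along CCL19 and CCL21. CXCR4, the receptor of CXCL12, holds germinal center B cells in the dark zone. Activated B cells themselves secrete ligands such as CCL3, CCL4, CCL17 and CCL22, which attract T cells and dendritic cells.

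FOXP1 was lower on all 24 arrays, with a mean log2 ratio of siFOXP1 over siCtrl of -1.96 for OCI-Ly3, -1.74 for HBL-1, -1.34 for K422 and -1.998 for DB. siFOXP1_309 lowered it further than siFOXP1_308 in each line, with means of -2.70 against -1.30 in DB and of -1.76 against -0.91 in K422. The B-cell markers CD79A, CD79B, MS4A1, PAX5 and CD22 were well above background in the siCtrl channel on every array. Of the 5 ABC-DLBCL markers, IRF4 and CCND2 were well above background on all 6 arrays of HBL-1 and of OCI-Ly3 and on none of DB or K422. Of the 5 GCB-DLBCL markers, MME showed the converse. The full lists separated the subtypes less cleanly. Both ABC-DLBCL lines had all 5 ABC-DLBCL markers well above background on every siCtrl array, but DB had 3 and K422 had 2. Both GCB-DLBCL lines had all 5 GCB-DLBCL markers, but each ABC-DLBCL line had 2. Of 5 T-cell markers, 3 were well above background in siCtrl on all 6 arrays of K422, 1 of HBL-1, 1 of OCI-Ly3 and 0 of DB, of 5 myeloid markers 2 were in K422 and 1 in each other line, and of 4 stromal markers 1 was in DB and 0 in the others. The share of probes with a channel well above background was 57.2% on the array with the fewest and 64.4% on that with the most. "Well above background" is the flag the scanner software gives to a spot whose signal stands clear of its local background.

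Which members the lines expressed was read from the siCtrl channel. Of the 57 members, 29 were well above background on all 6 arrays of at least one line, 17 ligands and 12 receptors, while 14 never were in either channel on any of the 24 arrays. The latter included CXCL12, the ligand of CXCR4, CCL20, the ligand of CCR6, and CCL2, a ligand of CCR2. By line, OCI-Ly3 had 22 members well above background on all 6 arrays, HBL-1 had 20, K422 had 18 and DB had 10. Those seen on all 6 arrays in each of the 4 lines were CCL3 and CCL3L3, which encode near-identical macrophage inflammatory proteins, CCL24 (eotaxin-2), CCL27, CXCL5 and the eotaxin receptor CCR3. For CCR3 that rested on 1 of its 3 probes and for CXCL5 on 1 of its 2, as the other probes were at or near background in each line. CCL22, CXCL9, CXCL10, CXCL13 and CCR2 reached all 6 arrays in OCI-Ly3 alone, CCR6 in HBL-1 alone, and CCR1 (by 1 of its probes) and CCL21 in K422 alone. Among the others, CXCR7, the scavenging receptor of CXCL12, was well above background on 5 of 6 arrays in DB, on 1 in HBL-1 and on none in K422 and OCI-Ly3, CCL19 on 5 of 6 in K422 and in OCI-Ly3, and CXCL11 on 5 of 6 in OCI-Ly3.

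**Figure D1:**
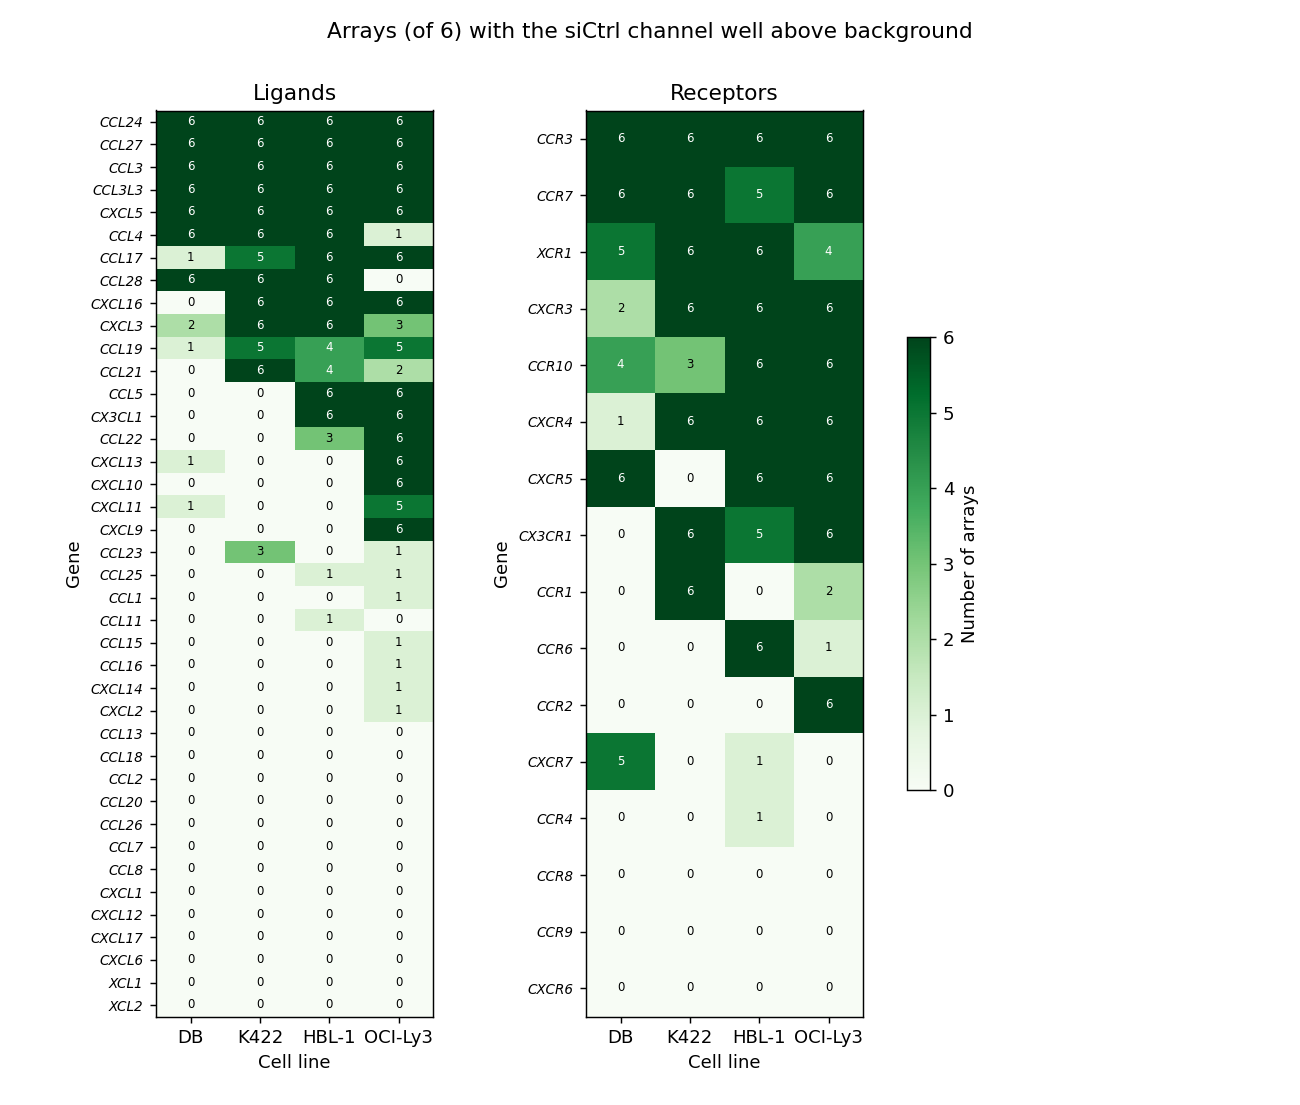
Number of arrays, of 6 per cell line, on which the siCtrl channel was well above background, for 40 ligands (left) and receptors (right), with lines as columns and genes as rows ordered by their total. CCL24, CCL27, CCL3, CCL3L3, CXCL5 and CCR3 reached 6 in all 4 lines, and CXCL9, CXCL10 and CCR2 reached 6 in OCI-Ly3 and 0 in the other lines.

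The level of a member in unsilenced cells was compared within each scan session, as DB and OCI-Ly3 were scanned in one session and K422 and HBL-1 in another. A member was called where the adjusted p was under 0.05, the log2 difference was at least 1 (2-fold) and the siCtrl channel was well above background on all 6 arrays of one of the lines. OCI-Ly3 had 16 members higher and 2 lower than DB, where 10.4% and 11.4% of all genes were called in these directions (21.8% in all). HBL-1 had 10 higher and 6 lower than K422, against 10.2% and 11.5% (21.7%). Of the genes well above background on all 6 arrays of one of the lines, 39.1% were called in the first comparison and 36.7% in the second, against 18 and 16 of 24 such members in each. Each pair is 1 line against 1 line, so subtype and line cannot be told apart in it, and neither can fewer cells that express a gene and less RNA per cell.

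CCR7 and CXCR5, receptors of lymphoid homing, were higher in both ABC-DLBCL lines. CCR7 stood at log2 signals of 15.56, 15.50 and 15.54 in the 3 replicates of OCI-Ly3 and at 7.23, 5.92 and 6.94 in DB, a difference of 8.84 (SE 0.44, adjusted p = 2.84e-08). In HBL-1 it stood at 15.23, 14.71 and 14.65 against 7.56, 6.02 and 5.89 in K422, a difference of 8.38 (adjusted p = 4.99e-08). The replicates of the ABC-DLBCL lines lay far above those of the GCB-DLBCL lines with no overlap. CXCR5 was at 9.41 ± 0.37 (SD, n = 3) in DB, 14.70 ± 0.08 in OCI-Ly3 and, as a second ABC-DLBCL line, 14.20 ± 0.09 in HBL-1. In K422 its probe was not well above background on any array, so HBL-1 was at least 1270-fold higher. CXCR4 was at 14.22 ± 0.28 in OCI-Ly3 and was well above background on only 1 of 6 arrays in DB. In HBL-1 and K422, 8.75 ± 0.81 and 7.91 ± 0.57, its 3 replicates overlapped (adjusted p = 0.248). CXCR3, the receptor of CXCL9, CXCL10 and CXCL11, was higher in both ABC-DLBCL lines, at 9.89 ± 0.15 in OCI-Ly3 against 4.90 ± 0.36 in DB, where 2 of 6 arrays were well above background, and at 7.77 ± 0.41 in HBL-1 against 5.32 ± 0.34 in K422. CCR10, which receives CCL27 and CCL28, was at 12.24 ± 0.19 in OCI-Ly3 against 4.86 ± 0.15 in DB, a far wider gap than 5.51 ± 0.11 in HBL-1 against 4.41 ± 0.15 in K422.

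The CC receptors of inflammation did not follow one order. CCR2 was at least 6.54-fold higher in OCI-Ly3 than in DB, where it was not well above background on any array. In the other pair CCR1 was at least 2.59-fold lower in HBL-1 than in K422, and CCR6, a receptor of mature B cells, was at least 2.43-fold higher there. Another CCR1 probe was not well above background on any array of these lines. CCR3 was lower in HBL-1 by a log2 difference of -1.31 (adjusted p = 0.000638). CX3CR1 was at least 6.11-fold higher in OCI-Ly3 than in DB but lower in HBL-1 than in K422 (-1.07, adjusted p = 0.0214), a call lost without replicate 3 of K422 (-0.77) or of HBL-1 (-0.90).

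Among the ligands, CX3CL1 (fractalkine, a membrane-anchored chemokine) was at least 126-fold higher in OCI-Ly3 than in DB. It was at 9.21 ± 0.16 in HBL-1, and in K422 its brightest probe was not well above background on any array while another was on 5 of 6, so no fold is given. CCL5 (RANTES) was at least 11.6-fold higher in OCI-Ly3 than in DB and at least 10.9-fold higher in HBL-1 than in K422. CCL17, a ligand of CCR4, was at 12.37 ± 0.23 (OCI-Ly3) and 7.56 ± 0.07 (HBL-1), against 3.52 ± 0.48 in DB (1 of 6 arrays well above background) and 4.57 ± 0.57 in K422. The interferon-inducible CXCL10 was at least 375-fold and CXCL9 at least 11.4-fold higher in OCI-Ly3 than in DB, as was CCL22, a ligand of CCR4, by at least 8.89-fold. CXCL16 was at least 1.58-fold higher in OCI-Ly3 than in DB and by a log2 difference of 1.31 in HBL-1 than in K422, where CCL27 differed by 1.60 in the same direction. CXCL13 was at 15.79 ± 0.04 in OCI-Ly3 and was well above background on 1 of 6 arrays in DB and on none in K422 or HBL-1. Its signal and that of CCR7 were not flagged as saturated on any array. Lower in both ABC-DLBCL lines were CCL4, the partner of CCL3, and CCL28, a mucosal chemokine. CCL4 was at 10.15 ± 0.29 in DB and was well above background on 1 of 6 arrays in OCI-Ly3, while HBL-1 and K422 were at 9.63 ± 0.17 and 11.54 ± 1.53 (a difference of -1.91 with adjusted p = 0.0182, of -1.82 with 0.0551 without HBL-1 replicate 1, and of -1.03 with 0.000951 without K422 replicate 1). CCL28 was at least 6.94-fold lower in OCI-Ly3 than in DB and stood at 6.42 ± 0.65 in HBL-1 against 8.55 ± 0.77 in K422. Under normexp with an offset of 50 the level differences shrank, and those of CCR1, CCR3, CCR6, CCR10, CX3CR1, CXCL16 and CCL27 between HBL-1 and K422 and of CXCL16 between OCI-Ly3 and DB were no longer called.

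**Figure D2:**
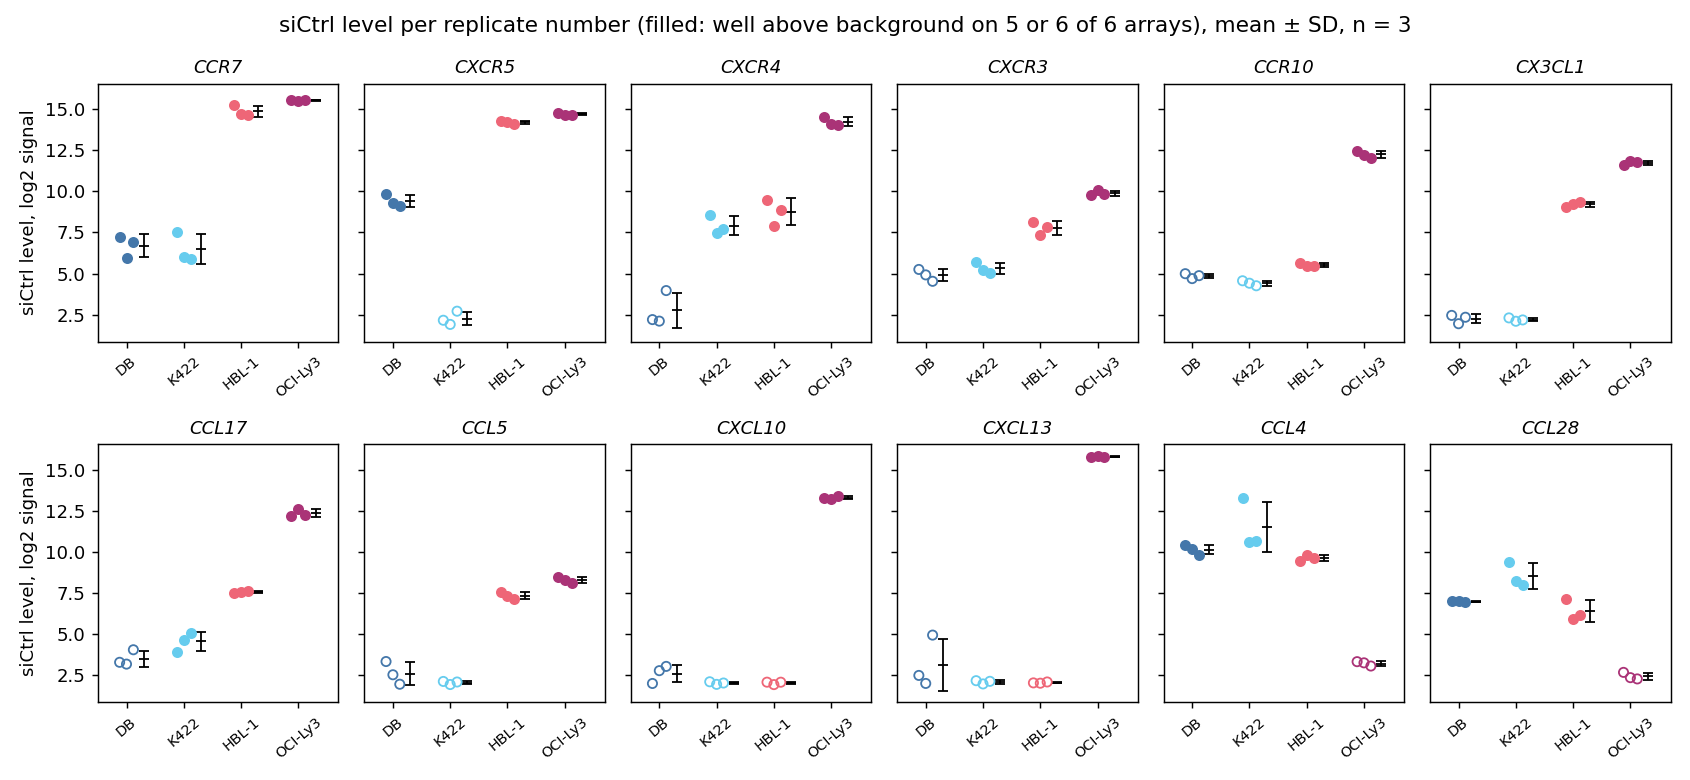
siCtrl level (log2 signal) of 12 members in the 3 replicates of each cell line, with the mean and SD (n = 3) beside the points; filled circles mark lines well above background on 5 or 6 of 6 arrays, open circles the rest. CCR7 lay between 14.65 and 15.56 in HBL-1 and OCI-Ly3 and between 5.89 and 7.56 in DB and K422.

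The wide SD of CCL4 in K422 came from replicate 1. Its siCtrl level was 13.31 there, 2.65 above the mean of replicates 2 and 3, and that of CCL3 was 13.33 against 9.61 and 9.79, a difference of 3.64 from the mean of the others. CCL3L3 moved likewise, with 11.39 against 7.83 and 7.99. Of 16080 genes well above background in K422, 65 (0.404%) differed by at least 2 between replicate 1 and the mean of the others. These are levels in control cells.

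**Figure D3:**
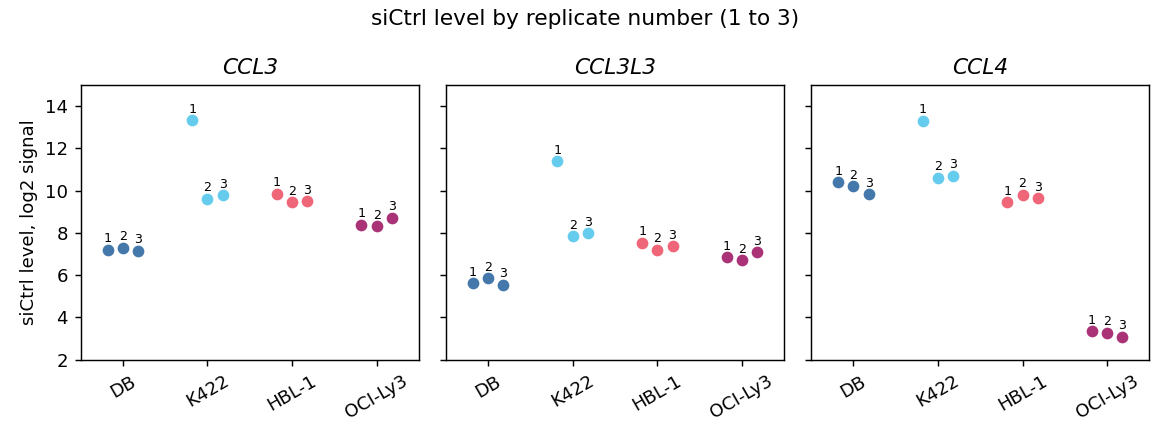
siCtrl level (log2 signal) of CCL3, CCL3L3 and CCL4 by cell line, each point 1 replicate with its number above it. In K422 replicate 1 stood at 13.33, 11.39 and 13.31, above replicates 2 and 3, and CCL4 stood between 3.07 and 3.34 in OCI-Ly3.

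Silencing of FOXP1 was then read as the log2 ratio of siFOXP1 over siCtrl. A member was called higher or lower where limma gave an adjusted p under 0.05 over all genes and the mean log2 ratio was at least 0.5 (1.41-fold) in size. Of the 57 members, DB had 0 higher and 1 lower, where 1.33% and 0.829% of all genes were called in these directions (2.16% in all). K422 had 1 higher and 3 lower, where 2.34% and 2.1% of all genes were called (4.44%). HBL-1 had 1 higher and 4 lower, against 5.73% and 4.17% (9.9%), and OCI-Ly3 had 2 higher and 5 lower, against 2.8% and 1.62% (4.42%). The calls were 12.3% of the members for OCI-Ly3, 8.77% for HBL-1, 7.02% for K422 and 1.75% for DB. Counting only genes with a channel well above background on each of the 6 arrays, 6 of 24 members were called for OCI-Ly3 (4.32% of all such genes), 5 of 23 for HBL-1 (12.7%), 3 of 20 for K422 (4.32%) and 1 of 14 for DB (1.65%). For members higher in DB, limma gave 5 at an unadjusted p under 0.05, a limit at which the share of all genes was not counted. The methods' t-test gave 0 after adjustment. The median log2 ratio of the 57 members was 0 in DB, K422 and HBL-1 and -0.01 in OCI-Ly3, and that of all genes was 0. In all, 12 members were called in at least one line. Under normexp background correction with an offset of 50 the ratios shrank, and the means of CXCR3 in HBL-1 (-0.40) and OCI-Ly3 (-0.47), CCR2 (-0.43) in OCI-Ly3, and CCR6 (-0.29), CCL3 (-0.48) and CCL3L3 (-0.25) in HBL-1 came under the 0.5 limit, while their adjusted p stayed under 0.05.

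CXCR4 had the widest change of the members. A promoter window of CXCR4, the 250 bases before the annotated transcript start (RefSeq, GRCh38.p14), is printed 5′ to 3′ on the gene's strand because FOXP1 is a forkhead factor, a class that binds motifs of this kind. Capitals mark GCAAACA, which is TGTTTGC on the other strand and begins 178 bases before the start.
CXCR4, chr2:136118150-136118399, minus strand: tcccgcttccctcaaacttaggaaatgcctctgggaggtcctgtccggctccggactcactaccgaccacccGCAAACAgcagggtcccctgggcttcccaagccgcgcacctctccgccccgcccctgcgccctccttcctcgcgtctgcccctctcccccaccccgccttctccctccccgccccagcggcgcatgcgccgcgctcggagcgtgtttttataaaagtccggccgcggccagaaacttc
TGTTTAC and TGTTTGC were searched on both strands in 35116 windows of 250 bases, and 6.09% held either one. Of the 42 members with a window, CXCR4 held TGTTTGC in 1 of its 3 windows and CXCL13 in 1 of its 2, and CCR3 held TGTTTAC. The share is one of windows, and a gene with several windows has more chances of a match. These are matches of letters, and binding was not measured here.

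In HBL-1 the CXCR4 log2 ratios were 2.03, 1.62 and 1.41 with siFOXP1_308 and 3.41, 3.31 and 2.84 with siFOXP1_309, a mean of 2.43 (SE 0.17, 5.40-fold, adjusted p = 1.32e-08). In K422 they were 2.17, 0.69 and 0.59 with siFOXP1_308 and 1.59, 1.04 and 0.90 with siFOXP1_309, a mean of 1.16 (2.24-fold, adjusted p = 0.000103, and 0.0507 with K422 fitted alone). All 12 arrays of these lines were above 0, replicate 1 of K422 was the highest with either siRNA (the mean was 0.81 without it, adjusted p = 0.000998), and in HBL-1 the 2 siRNAs did not overlap. The siRNA difference in HBL-1 was 1.501 (95% interval 0.79 to 2.21) with an adjusted p of 0.0968. In OCI-Ly3 the ratios ran from -0.64 to 0.13 with a mean of -0.22 (adjusted p = 0.423), and in DB, where 1 of 6 arrays was well above background, from -0.59 to 0.11.

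Only CXCR4 was called between subtypes, among 2.26% of all genes. The mean of the ABC-DLBCL lines was 1.11 and that of the GCB-DLBCL lines 0.52, a difference of 0.58 (95% interval 0.23 to 0.94, adjusted p = 0.0398). Within the scan sessions the difference was 1.27 for HBL-1 minus K422 (adjusted p = 0.00212, and 0.53 with an adjusted p of 0.601 for siFOXP1_308 alone) and -0.10 for OCI-Ly3 minus DB (adjusted p = 0.936), so the subtypes did not separate in both pairs. The call was lost with siFOXP1_308 alone (0.12, adjusted p = 0.93), and without HBL-1 replicate 1 or 2, either of replicates 2 and 3 of K422 or OCI-Ly3, or any replicate of DB, where the adjusted p ran from 0.0629 to 0.127. With the replicate number as a block it was lost as well (adjusted p = 0.0665). The test covers the spread between arrays of these 4 lines and not that between lines of a subtype.

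CXCR3 fell in both ABC-DLBCL lines. In HBL-1 the 6 ratios ran from -0.82 through a median of -0.68 to -0.19, with a mean of -0.61 (adjusted p = 0.000194), and all were below 0. In OCI-Ly3 they were -0.63, -0.97 and -1.02 with siFOXP1_308 and 0.03, -0.40 and -0.35 with siFOXP1_309, a mean of -0.56 (adjusted p = 0.00109). Without replicate 2 or replicate 3 of OCI-Ly3 the mean was -0.49, under the 0.5 limit, and siFOXP1_309 alone gave -0.24. In K422 and DB the means were -0.09 and -0.16, but in DB the probe was well above background on only 2 of 6 siCtrl and 3 of 6 siFOXP1 arrays. HBL-1 minus K422 was -0.52 (adjusted p = 0.0326), a call lost without any one of 5 of the 6 replicates of the pair and with the replicate block (adjusted p = 0.0808).

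CCR2, the receptor of CCL2, fell in OCI-Ly3. Its ratios there ran from -1.14 through -0.75 to -0.42, with a mean of -0.76 (adjusted p = 7.98e-05), and all 6 were below 0. Of its 2 further probes one gave -0.62 and the other was at background. The probe was not well above background in the other lines. CCR3, the eotaxin receptor, had a mean of 0.04 in OCI-Ly3.

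CCR6, the receptor of CCL20, fell in HBL-1, the only line where it was well above background on all 6 arrays. Its ratios ran from -1.09 through -0.79 to -0.51, with a mean of -0.80 (1.75-fold, adjusted p = 2.56e-07). K422 was at exactly 0 on all 6 arrays. A ratio of exactly 0 is what the scanner software writes where neither channel is usable, and it made up 39.3% of the member values, none of them with a channel well above background. Such zeros narrow the spread that the lines share in the fit. With HBL-1 fitted alone CCR6 remained called, as did CXCL9, CXCL13, CCR2 and CCL5 with OCI-Ly3 fitted alone.

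CCR7 and CXCR5, high in the ABC-DLBCL lines, were not called in any line. CCR7 was above 0 on all 6 arrays of OCI-Ly3, from 0.12 to 0.37 with a mean of 0.26 (adjusted p = 0.529), and in K422 it ran from -0.43 to 1.83 with a mean of 0.57 (adjusted p = 0.102). CXCR5 was likewise above 0 on all 6 arrays of OCI-Ly3, with a mean of 0.33 (adjusted p = 0.383), and its second probe, well above background on all 6 of them, gave 0.63. CX3CR1 had a mean of 0.41 in OCI-Ly3 on 6 of 6 arrays (adjusted p = 0.304).

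**Figure D4:**
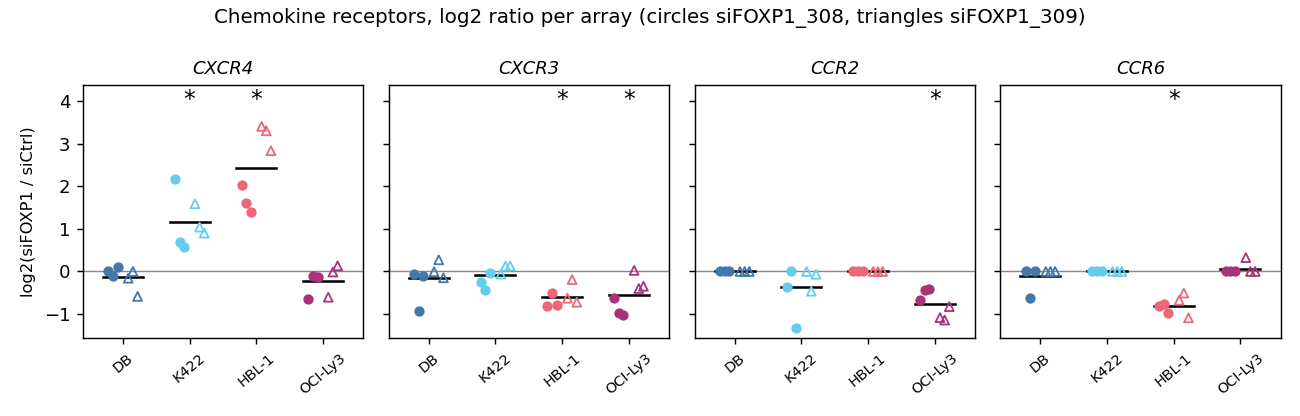
Log2 ratio of siFOXP1 over siCtrl on each of the 6 arrays per cell line for 4 receptors called in at least one line, with circles for siFOXP1_308, triangles for siFOXP1_309, bars for the mean and asterisks for called lines. CXCR4 lay between 0.59 and 3.41 in K422 and HBL-1, and CXCR3 had means of -0.61 and -0.56 in HBL-1 and OCI-Ly3.

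Among the ligands, CCL3 fell in DB, K422 and HBL-1 and CCL3L3 in K422 and HBL-1. These genes are near-identical copies, so a probe of one may read the other, and their values count as uncertain and not as independent. Their promoters, 250 bases of the gene's strand as above, are shown because the probe values of these genes moved together. Over 256 aligned columns the promoters were identical in 234 (91.4%), and a link of that to the values was not tested. Neither holds a forkhead motif of those searched.
CCL3, chr17:36090144-36090393, minus strand: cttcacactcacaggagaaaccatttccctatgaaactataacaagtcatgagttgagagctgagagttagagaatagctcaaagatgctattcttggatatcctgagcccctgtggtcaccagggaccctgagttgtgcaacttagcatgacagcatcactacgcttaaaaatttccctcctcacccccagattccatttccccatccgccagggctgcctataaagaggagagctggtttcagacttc
CCL3L3, chr17:36196759-36197008, minus strand: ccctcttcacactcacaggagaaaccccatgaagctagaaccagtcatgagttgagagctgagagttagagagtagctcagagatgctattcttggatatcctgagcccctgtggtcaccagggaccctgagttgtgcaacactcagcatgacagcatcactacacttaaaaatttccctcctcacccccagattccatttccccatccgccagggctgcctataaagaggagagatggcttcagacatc
In K422 the CCL3 ratios were -1.32, -0.76 and -1.22 with siFOXP1_308 and -0.48, -0.59 and -0.84 with siFOXP1_309, a mean of -0.87 (1.83-fold, adjusted p = 0.000325, and -0.85 without replicate 1). In HBL-1 they were -0.70, -0.75 and -0.78 with siFOXP1_308 and -0.12, -0.56 and -0.51 with siFOXP1_309, a mean of -0.57 (adjusted p = 0.00477, and 0.0509 without HBL-1 replicate 3). With siFOXP1_309 alone the CCL3 means were -0.64 in K422 (adjusted p = 0.0683) and, for HBL-1, -0.40 (adjusted p = 0.187). All 12 arrays of these lines were below 0. In DB the mean was -0.53 (adjusted p = 0.0211), but it rested on replicate 2, with -1.11 and -1.31 against -0.45 to -0.03 on the remaining arrays, and it was -0.19 (adjusted p = 0.343) without that replicate. OCI-Ly3 had a mean of -0.26 with 5 of 6 arrays below 0 (adjusted p = 0.251).

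CCL3L3 fell by 0.86 on the log2 scale for K422 (adjusted p = 9.95e-06, and by 0.83 without replicate 1), and for HBL-1 it fell by 0.57 (adjusted p = 0.000183). With siFOXP1_309 alone its HBL-1 mean was -0.44, and the call was lost. Its mean was -0.33 for DB (adjusted p = 0.0338) as for OCI-Ly3 (adjusted p = 0.0237), under the 0.5 limit. Its second probe gave -0.90, -0.60, -0.35 and -0.33 in K422, HBL-1, DB and OCI-Ly3. CCL4, whose probe lies 16.8 kb from that of CCL3 on chromosome 17 (hg18), had means of -0.53 in HBL-1 (adjusted p = 0.0964), -0.47 in K422 (adjusted p = 0.178) and -0.35 in DB (adjusted p = 0.408), none of them called. Of 5 myeloid markers in K422, CSF1R also fell, by 0.99 on the log2 scale (adjusted p = 0.000132), CD14 was at 0.13, and LYZ (-0.78, adjusted p = 0.00028), CD163 and FCGR3A were not well above background on any array. The summed signal of the 5 in replicates 1, 2 and 3 was 77.6, 101 and 104 with siCtrl and 48.7, 74.3 and 85 with siFOXP1. It was lowest in replicate 1, where the siCtrl level of CCL3 was highest, and its part in the CCL3 result was not tested.

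OCI-Ly3 carried most of the other ligand calls. CXCL9, a ligand of CXCR3, had ratios of -1.32, -1.44 and -1.48 with siFOXP1_308 and -1.16, -1.35 and -1.24 with siFOXP1_309, a mean of -1.33 (2.52-fold, adjusted p = 2.3e-05). Its neighbors on chromosome 4 and fellow CXCR3 ligands were not called there. CXCL10, 20.1 kb away (hg18), had a mean of -0.09 with 6 of 6 arrays below 0 (adjusted p = 0.389), and CXCL11 a mean of -0.22 (adjusted p = 0.536). CCL5 ran from -0.80 through -0.61 to -0.58, a mean of -0.64 (adjusted p = 0.000122), in OCI-Ly3, whereas in HBL-1, the other line where it was well above background, the mean was 0.04.

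CXCL13, the ligand of CXCR5, was the ligand that rose among those well above background. Its ratios in OCI-Ly3 were 0.91, 0.87 and 0.99 with siFOXP1_308 and 0.65, 0.68 and 0.74 with siFOXP1_309, a mean of 0.81 (1.75-fold, adjusted p = 2.05e-08, and 0.38 under normexp with median centring). All arrays were above 0, and those of siFOXP1_308 lay above those of siFOXP1_309. The differences between lines of a scan session were called for 5 members in OCI-Ly3 minus DB, where 1.43% of all genes were called, and for CCR6 (-0.80), CXCR3 and CXCR4 in HBL-1 minus K422, where 4.34% were. Against DB, the differences of CXCL13 (0.63), CXCL9 (-1.03), CCL5 (-0.68) and CCR2 (-0.76) were called, but the probes were at or near background in DB, so these compare a measured ratio with one that was not. The same holds for CCR6 against K422, where its ratio was exactly 0 on all 6 arrays, so that its -0.80 is the HBL-1 mean. CXCL2 in OCI-Ly3 (mean 0.84, with 2.27 on 1 array and 0.37 to 1.11 on the others) and CCL18 in K422 (mean -0.67, with exactly 0 on 3 arrays) were called as well. CXCL2 was well above background on at most 3 of 6 arrays per channel and CCL18 on none, and both calls were lost when the line was fitted alone (adjusted p = 0.151 and 0.38). CXCL2 also lost its call without OCI-Ly3 replicate 3 (0.57, adjusted p = 0.118) and CCL18 without K422 replicate 1 (-0.10, adjusted p = 0.363) and with the replicate block (adjusted p = 0.0543).

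**Figure D5:**
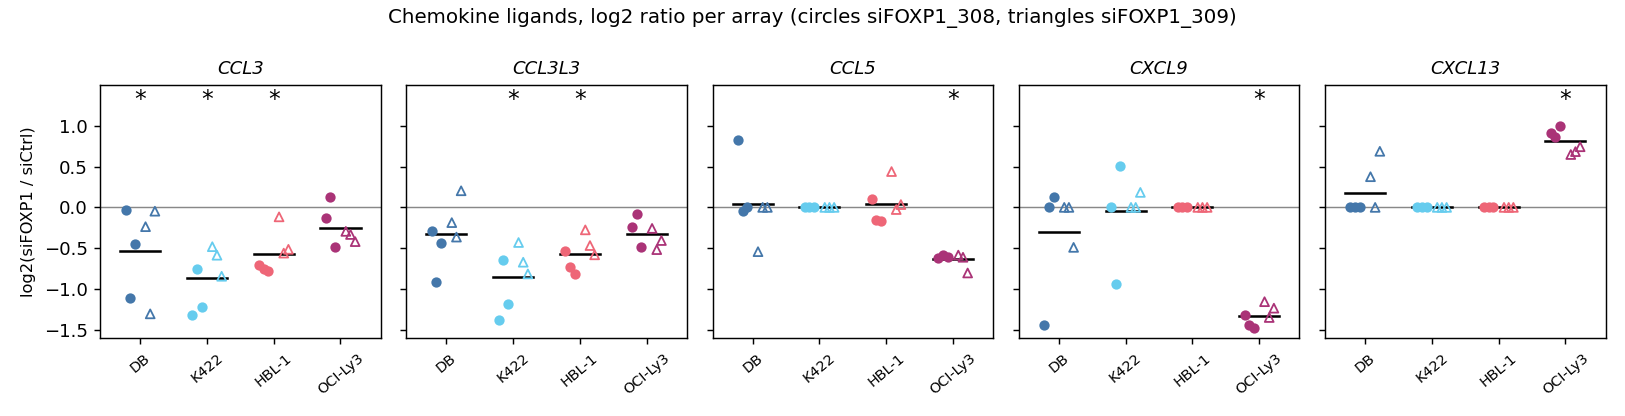
Log2 ratio of siFOXP1 over siCtrl on each of the 6 arrays per cell line for the 5 ligands called and measured in at least one line, with circles for siFOXP1_308, triangles for siFOXP1_309, bars for the mean and asterisks for called lines. CXCL9 lay between -1.48 and -1.16 and CXCL13 between 0.65 and 0.99 in OCI-Ly3, while many points at exactly 0 mark arrays where the probe was at background.

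The remaining ligands and receptors well above background were not called. CCL17 and CCL22, made by activated B cells, had means of 0.19 and 0.30 in OCI-Ly3, CX3CL1 of -0.29 for HBL-1 and -0.07 for OCI-Ly3, and CXCL16 of 0.36 in K422 (adjusted p = 0.0876). CCL28 had a mean of -0.45 in HBL-1 on 6 of 6 arrays (adjusted p = 0.0133). CXCL3, a neutrophil attractant, had means of 0.35 in K422 and 0.39 in HBL-1, while another of its probes was at background in each line. CCL24 moved by 0.13 at most in any line, and CCL21, CCL27, CXCL5, CCR1, CCR3, CCR10 and XCR1 had means between -0.24 and 0.24 in the lines where they were well above background on all 6 arrays. Between the 2 siRNAs limma called 0 members in any line, where 0.192% of all genes were called for OCI-Ly3, 0.173% for HBL-1, 0.159% for K422 and 0.302% for DB. At an unadjusted p under 0.05 there were 9, 3, 1 and 5 members in the same order. The share of all genes at that limit was not counted, so these counts have no comparison.

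Genes around the receptors were counted in a list of 75, of which 52 in DB and up to 60 in HBL-1 and OCI-Ly3 were well above background on each array of the line. In DB 2 were higher and 1 lower (2.16% of all genes were called), in K422 9 and 4 (4.44%), in HBL-1 12 and 1 (9.9%), and for OCI-Ly3 5 and 1 (4.42%). Among the related receptors that guide B-cell position, S1PR1, which drives exit from lymphoid tissue, was higher in OCI-Ly3 (1.43, 6 of 6 arrays, adjusted p = 8.95e-09), and S1PR2, which confines germinal center B cells, in K422 (0.77, adjusted p = 9.45e-07) as well as HBL-1 (0.54, adjusted p = 1e-05). GPR183, an oxysterol receptor, was lower in K422 (-0.73, 5 of 6 arrays, adjusted p = 0.00013) and higher in HBL-1 (0.63, adjusted p = 0.000208). The K422 call was lost with K422 fitted alone (adjusted p = 0.0704) and by the methods' t-test (adjusted p = 0.06). RGS proteins damp signaling below chemokine receptors, and in HBL-1 RGS13 and RGS1 were higher by 1.32 (adjusted p = 3.14e-09) and 1.095 (adjusted p = 0.000581). The RGS1 call was lost there with siFOXP1_308 alone (0.705, adjusted p = 0.13). RGS1 was also called higher in OCI-Ly3 (0.66, adjusted p = 0.0365), but the call was lost without any one replicate of that line (adjusted p = 0.0753, 0.173 and 0.188) and with the replicate block (0.0814). RGS2 was lower there (-0.51), but under the 0.5 limit without replicate 1 (-0.48) and with siFOXP1_308 alone (-0.39). GNG7, a G protein gamma subunit, rose by 1.75 in HBL-1 and 1.52 in K422, each on 6 of 6 arrays. The kinase PTK2B was higher in DB (0.70), K422 (0.70) and HBL-1 (0.60). The kinase FGR was called lower in K422 (-0.67, and -0.24 with adjusted p = 0.108 as a mean over its probes) and DB (-0.62), where the call was lost without replicate 2 (-0.42, adjusted p = 0.0868) and with DB fitted alone (adjusted p = 0.134). In OCI-Ly3 it was called higher (0.52, adjusted p = 0.00896), with 1 of 6 siCtrl arrays well above background. PIK3R5, a regulator of PI3-kinase gamma, was higher in OCI-Ly3 (0.95). DPP4, which cleaves several chemokines, was lower in HBL-1 (-0.55), but under the 0.5 limit without replicate 1 (-0.45) and with siFOXP1_308 alone (-0.38). CKLF, a chemokine-like factor, was lower in K422 (-0.50). It came under that limit without replicate 1 (-0.49) or 3 (-0.48), with siFOXP1_309 alone (-0.42) and as a mean over its probes (-0.43). The older-named members of the family (IL8, IL8RA, IL8RB, PF4, PF4V1 and PPBP) held 0 calls in any line, and 1 of the 6 was well above background in OCI-Ly3. Under normexp with loess the means of FGR in DB (-0.18), GPR183 (-0.12) and CKLF (-0.44) in K422, DPP4 in HBL-1 (-0.25) and PIK3R5 in OCI-Ly3 (0.28) were under the 0.5 limit. The list was drawn up with earlier results of these data known. Its counts describe the list, and no test of the list was made.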

How the data were processed

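RNA of 4 DLBCL cell lines was hybridized to 24 Agilent 2-color arrays (probe coordinates hg18), siFOXP1 RNA in Cy3 and siCtrl RNA in Cy5. Per the file headers, the deposited scanner files hold red and green signal intensities after background subtraction and loess dye normalization, and log10 ratios of red over green, made with Agilent Feature Extraction 10.5.1.1 (DB and OCI-Ly3) or 10.7.3.1 (K422 and HBL-1). A second deposited table holds the authors' processed values, which correlated positively with log2 of siFOXP1 over siCtrl; their centring stays unknown, and they served as an alternative. Each log10 ratio was turned in sign and converted to log2. Outlier spots were left out, and spots of 1 probe were averaged. A gene was read from its brightest probe over the whole series.

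limma 3.58.1 in R 4.3.3 was fitted over all 24 arrays with a mean per line and siRNA. A line's value was the mean of its 2 siRNA means, and p-values were adjusted by Benjamini-Hochberg over all genes. Adjusted p-values and standard errors in the text come from limma. Levels were log2 siCtrl intensities after Aquantile scaling, averaged over the 2 arrays of a replicate number (n = 3). Where one line was not well above background, "at least N-fold" sets the mean of the bright line against the higher of the dim probe's own signal and the lowest signal among probes well above background on each dim array. The number of arrays limits the precision. p-values of levels measure the spread between the replicates of these lines, stated to be biological. Those of silencing measure the spread between arrays, which were taken as independent. The code was tested on simulated data.

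Members and gene lists were chosen with earlier results of these data known. Values are given for members called in a line or between subtypes and measured there, and for members well above background in siCtrl on all 6 arrays of a line. Of the pathway genes, up to 3 per direction and line with the greatest called and measured change are named. CCL18, CXCL2, CXCL11, CCL19, CXCR7, GPR183, S1PR2 and PTK2B in HBL-1, PTK2B in K422, FGR in OCI-Ly3 and the myeloid markers fall outside that rule. Promoter sequences are from RefSeq (GRCh38.p14). Alternatives were the background correction, the centring, the deposited table, filters on dim genes, the mean over probes, replicate or slide as a block, each line fitted alone, the methods' t-test, each siRNA alone and leaving out each replicate. The authors' own comparisons were not used. Some genes are counted in the totals but are not reported here by name.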

Additional observations from a re-analysis of the deposited data

Results flagged for a closer look

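In OCI-Ly3 1 CCL5 array stood apart, replicate 3 of siFOXP1_309 at -0.8042, with a gap to its neighbor of 0.83 of the whole range, past the limit of Dixon's test. Of 17 such groups of 6 arrays, this was the 1 found, and chance gives about 1 in 20.

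Differences of the log2 ratio between lines passed the threshold for several members. Between subtypes that of CXCR4 was 0.5846. In OCI-Ly3 minus DB it was -0.6762 for CCL5, -0.7618 for CCR2, 0.6306 for CXCL13 and -1.032 for CXCL9. CXCL9 lost that call without DB replicate 2 (-0.88, adjusted p = 0.103) or any replicate of OCI-Ly3, with the replicate block (adjusted p = 0.0697) and with either siRNA alone. CCR2 lost it without OCI-Ly3 replicate 1 (-0.70, adjusted p = 0.0534) and with siFOXP1_308 alone (-0.51, adjusted p = 0.4). With siFOXP1_309 alone the calls of CCL5 (-0.49, adjusted p = 0.354) and CXCL13 (0.34, adjusted p = 0.179) were lost. The deposited table lost those of CCL5 (adjusted p = 0.09), CCR2 (adjusted p = 0.401) and CXCL9 (adjusted p = 0.0501). Under normexp with median centring CXCL13 (adjusted p = 0.0827) and CCR2 (-0.46) were not called. In HBL-1 minus K422 the difference was -0.8037 for CCR6, -0.5234 for CXCR3 and 1.27 for CXCR4. The CCR6 probe was at background in K422, with every ratio exactly 0. Its call was lost with normexp and loess (-0.22, adjusted p = 0.107) and with normexp and median centring (-0.31, adjusted p = 0.177). The deposited table gave -0.49 for CCR6, under the 0.5 limit.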

How the results depend on the processing

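Of 731 recomputed silencing differences of members, pathway genes and FOXP1, 585 kept their direction and side of the threshold, 145 lost the call and 1 reversed, CCL18 in K422 at 0.007843 with normexp and median centring. Of 340 recomputed level differences, 325 kept both and 15 lost the call. CX3CR1 in HBL-1 against K422 was among these. FOXP1 lost its call in DB by the methods' t-test (adjusted p = 0.0793). With normexp and loess, called members numbered 3 for OCI-Ly3, 1 for HBL-1 and 0 for DB, 0 differed between subtypes and 1 between the siRNAs, and pathway genes numbered 1 in DB and 6 in K422. Here the offset of 50 shrinks the ratios of dim probes. With normexp and median centring, called members numbered 0 in DB, 2 in OCI-Ly3 and 0 between subtypes, and pathway genes 0 in DB and 8 in HBL-1. The deposited table gave 6 members in DB and 11 in OCI-Ly3, and 5 pathway genes in DB. With either filter on dim genes 3 members were called in OCI-Ly3, and the stricter filter gave 1 between the siRNAs. The filters left out CXCL9, CXCL13, CCR2 and CXCL2, so their OCI-Ly3 calls were not tested under them and were not lost there. Fitting each line alone left 0 members in DB, 2 in K422 and 1 pathway gene in DB, and the methods' t-test left 0, 4 in OCI-Ly3 and 1. The mean over all probes gave 1 pathway gene in DB. Slide as a random block gave 0 members in DB, 0 between subtypes and 1 between the siRNAs. siFOXP1_308 alone gave 0 between subtypes, and siFOXP1_309 alone gave 2, with 2 members in K422. HBL-1 and K422 differed in 8 siCtrl levels with normexp. The causes were not tested unless stated.

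With the replicate block, 0 members differed between subtypes (CXCR4 adjusted p = 0.0665) and 2 between the siRNAs, and the within-block correlation was 0.248. Deviations of same-numbered arrays correlated between 0.0468 and 0.284 over all genes, and between 0.115 and 0.573 over the 16450 bright ones. Every correlation was positive, but only those over the bright genes were all over 0.1. Whether the numbers pair the arrays was therefore not settled, and the block stayed an alternative. Levels were averaged by replicate number, while the main silencing fit treated the arrays of a line as independent. If the numbers do pair the arrays, the silencing p-values of a line may be too small. Of the member calls within a line, that of CCL18 in K422 was lost with the block.

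Leaving out 1 replicate at a time gave 0 to 2 members in DB, 3 to 4 in K422, 4 to 6 for HBL-1 and 6 to 9 for OCI-Ly3, 0 to 2 between subtypes and 0 to 2 between the siRNAs. Pathway genes numbered 4 to 6 in DB, 9 to 11 in K422, 10 to 13 for HBL-1 and 5 for OCI-Ly3, and levels that differed 18 to 19 for OCI-Ly3 against DB and 15 to 17 for HBL-1 against K422.

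Probes not well above background carry no measured ratio, dye and silencing cannot be told apart within a line, and each subtype holds 2 lines.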
